A study of Mus musculus with 18 samples.

Results

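The genes described here are *Grp*, *Grpr*, *Nmb*, *Nmbr*, *Npr1* and *Npr3*, which encode a pair of bombesin-like peptides, their receptors and a pair of natriuretic peptide receptors of the spinal itch circuit. They are 6 of the 55573 genes in the deposited count table and were taken by gene symbol. They were chosen by name, with the measured difference of *Grp* between males and females in these samples known, so their values are a description and are not independent evidence of a difference. The RNA came from spinal cord dorsal horn (DHSC) on the side of a hind paw injected with 2% formalin, and was taken 2 h after the injection. The 3 groups of 6 samples were F1/proestrus females, F2/metestrus females and males. F1 and F2 are the study's names for females with a short and a long pause (interphase) in their nocifensive behaviour. Per the study's methods, all mice were C57BL/6J adults of 8 to 12 weeks, and all groups had received formalin, so no value below measures a response to formalin.

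Gastrin-releasing peptide (GRP) is made by excitatory interneurons of the superficial dorsal horn and acts on GRPR, a receptor of dorsal horn neurons that relay itch towards the brain. Neuromedin B (NMB), its close relative, is found in sensory neurons and acts on NMBR. Both receptors couple through Gq proteins to phospholipase C. B-type natriuretic peptide, encoded by *Nppb*, is released by itch-sensing afferents and acts on NPR1, a receptor that makes cyclic GMP. NPR3 lacks that activity and clears natriuretic peptides. The bulk tissue mixes all cells of the dorsal horn, so more cells of a type and more RNA per cell cannot be told apart in any value below.

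Sequencing gave 73590509 to 125724156 counts per sample, and the 6 genes held 128 to 1731 counts in each sample. All 6 passed the filter on low counts in both comparisons. The libraries carried 2 blocks of numbers in the column names, 27 to 35 for samples 1 to 3 of each group and 188 to 196 for samples 4 to 6, called the first and the second library series here. Each series held 3 samples of every group, and 6774 of 25180 genes (26.9%) differed between them in edgeR's quasi-likelihood test at a false discovery rate (FDR) of 5%. The F1/proestrus sample 5 stood apart. Its summed level of 9 sensory ganglion markers was 439.9 CPM (counts scaled to a common library size), against 8.13 to 10.4 in the other samples. All 9 dorsal horn neuron markers were detected, and their summed level ran from 326 to 411 CPM over the 18 samples.

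The receptors belong to families with related sequence, and the longest identical stretches between their coding sequences are shown because they bear on whether counts could be shared between family members. The stretches were read from the GENCODE vM21 transcripts and are printed 5′ to 3′ on the coding strand, in lower case throughout.
Grpr and Nmbr: gacctgctgctgctg
Grpr and Brs3: gtgaacccctttgctct
Nmbr and Brs3: tctcagcgctgacag
Npr1 and Npr2: tccttccgcatccgccat
The first stretch, of 15 bases, lies in exon 1 of *Grpr* (chrX:163549025-163549039, minus strand) and exon 1 of *Nmbr* (chr10:14760553-14760567, plus strand). The second, of 17 bases, lies in exon 3 of *Grpr* (chrX:163515079-163515095, minus strand) and exon 3 of *Brs3* (chrX:57047130-57047146, plus strand). The stretch shared by *Nmbr* (chr10:14760696-14760710, plus strand) and *Brs3* (chrX:57043664-57043678, plus strand) has 15 bases, in exon 1 of each. *Npr1* and *Npr2* share 18 bases in exon 19 of each, at chr3:90455135-90455152 on the minus strand and chr4:43650263-43650280 on the plus strand. Over their aligned coding bases, *Grpr* and *Nmbr* were 66.0% identical and *Npr1* and *Npr2* were 70.4% identical. No stretch longer than 18 identical bases was shared by any of these pairs in the longest coding sequence of each gene. Exon bases outside those sequences, which also enter the counts, were not searched.

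In GRCm38 coordinates, *Grp* (ENSMUSG00000024517) lies on chromosome 18 at 65872820 to 65886596, and *Nmb* (ENSMUSG00000025723) on chromosome 7 at 80902227 to 80905076. The receptor gene *Grpr* (ENSMUSG00000031364) lies on chromosome X at 163513904 to 163549677, and *Nmbr* (ENSMUSG00000019865) on chromosome 10 at 14705591 to 14770850. *Npr1* (ENSMUSG00000027931) lies on chromosome 3 at 90450591 to 90465866, and *Npr3* (ENSMUSG00000022206) on chromosome 15 at 11839896 to 11907287. *Nmb* shares 163 of its 793 exon bases with *Sec11a* on the same strand. On the opposite strand, 504 of 3228 exon bases of *Nmbr* overlap B230364G03Rik, 559 of 4783 of *Npr1* overlap Gm16048 and 321 of 9389 of *Npr3* overlap Gm5144. The library kit named in the labels does not mark strand, and the handling of strand in the counting is not given in the sources used here, so reads from these shared stretches cannot be told apart. *Grp* lies within AC152076.4, an antisense gene on the opposite strand, whose exons share 0 bases with those of *Grp*. For *Grpr* no overlapping gene was annotated.

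*Grp* was higher in males than in females. Its level was 12.7 ± 3.52 CPM (SD, n = 6) in males, 7.09 ± 1.95 CPM (n = 6) in F1/proestrus and 6.33 ± 1.001 CPM (n = 6) in F2/metestrus. The lowest, median and highest samples were at 8.60, 12.9 and 18.04 CPM in males, at 5.30, 6.75 and 10.6 CPM in F1/proestrus and at 5.76, 5.95 and 8.36 CPM in F2/metestrus. All 6 males lay above the female median of 6.03 CPM, and 4 of 6 lay above all 12 females. The groups overlapped through F1/proestrus sample 6, at 10.6 CPM, which was above the 2 lowest males. Against F2/metestrus alone no male overlapped, which held for 0.318% of all genes tested in the direction of higher in males.

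In the fit over all genes, males against all 12 females, *Grp* was 1.89-fold higher in males (95% interval 1.53 to 2.35). The log2 fold change was 0.92 (SE 0.15, edgeR adjusted p = 0.00539 over 24862 genes), with the 19th smallest p. It was 1 of 6 members past the threshold, beside 49 genes called in all (0.197%), and 37 of those 49 were higher in males (0.149% of genes tested). Since *Grp* was chosen with this comparison known, nothing is read from that count. Against each female group in turn the difference of *Grp* was 0.84 (SE 0.18, edgeR adjusted p = 0.106) for F1/proestrus and 1.004 (SE 0.18, edgeR adjusted p = 0.0213) for F2/metestrus. Those fits called 23 genes (0.0925%) and 32 genes (0.129%), and they share the same males.

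**Figure D1:**
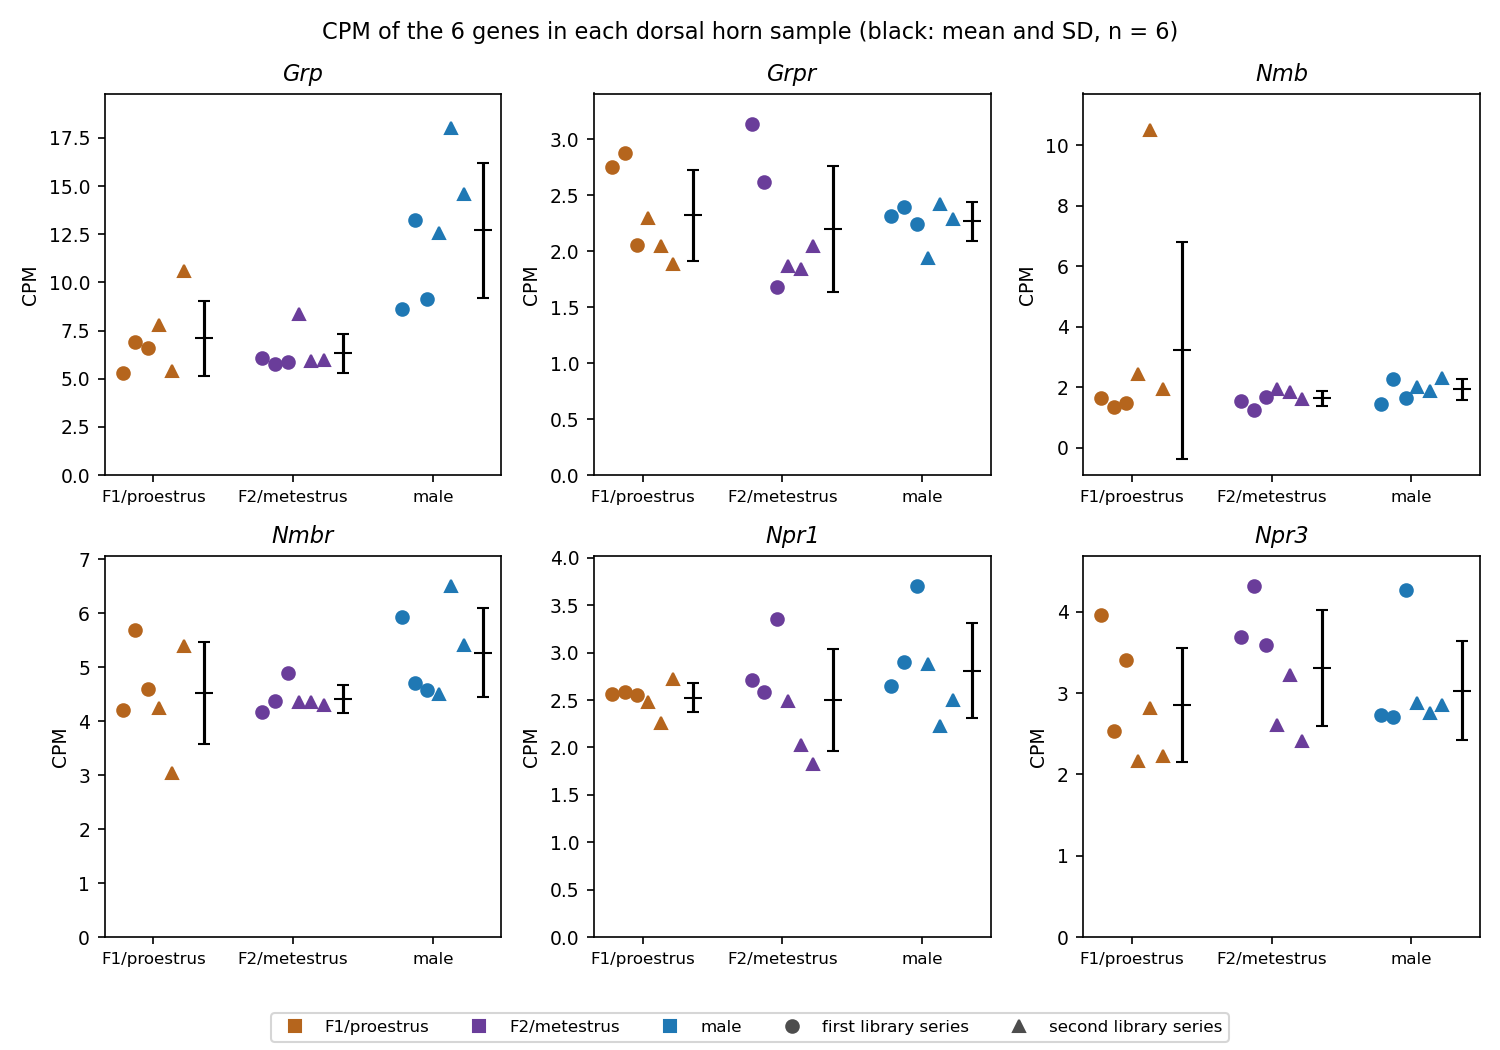
CPM of each of the 6 genes (y axes, each panel its own scale) in the F1/proestrus, F2/metestrus and male samples, with circles for the first and triangles for the second library series, and the mean and SD of 6 samples in black beside them. *Grp* is higher in males, at 8.60 to 18.04 CPM, and *Nmb* has 1 high sample, F1/proestrus sample 5, at 10.5 CPM.

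Within each library series the males and females did not overlap in *Grp*. In the first series the males were at 8.60, 9.12 and 13.3 CPM and the highest of 6 females was at 6.89 CPM. In the second series the males were at 12.6, 14.6 and 18.04 CPM and the highest of 6 females was at 10.6 CPM. Such a separation with males higher was found for 2.53% of genes tested in the first series, for 2.55% in the second and for 0.261% in both. Fitted within each series, the log2 difference was 0.75 (SE 0.13, edgeR adjusted p = 0.0809) in the first and 1.04 (SE 0.19, edgeR adjusted p = 0.111) in the second, and neither passed the 5% FDR. The difference between those differences was 0.28 (SE 0.26, edgeR adjusted p = 0.967, 95% interval -0.26 to 0.81). For that quantity edgeR called 0 of 24862 genes (0%), and 4.97% had an unadjusted p under 0.05. *Grp* itself was higher in the second series than in the first by 0.36 on the log2 scale (SE 0.12, edgeR adjusted p = 0.0324), beside 14.2% of genes that rose between the series.

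Markers of other cells were summed beside *Grp*, and 2 of those described here passed the test between the sexes. The Schwann cell markers were nominally higher in males for 8 of 8 genes and 1 of them passed the test, *Ncmap* (log2 difference 0.67, edgeR adjusted p = 0.00654), with summed levels of 803 to 1463 CPM in females and 1149 to 2582 CPM in males. The neutrophil markers were nominally higher for 6 of 6 genes and 1 of them passed, *Mpo* (log2 difference 1.37, edgeR adjusted p = 0.0161), with sums of 1.92 to 10.2 CPM in females and 5.39 to 29.8 CPM in males. Of the 9 dorsal horn neuron markers 7 were nominally higher in males and 0 passed, with sums of 326 to 386 CPM in females and 360.3 to 411 CPM in males. Of the 8 motor and ventral neuron markers 0 were higher in males and 0 passed, with sums of 86.5 to 249 CPM in females and 60.0 to 216 CPM in males. Each marker was detected in every group. The part of these cells in the *Grp* difference was not tested.

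*Nmb* was at 1.93 ± 0.35 CPM (SD, n = 6) in males, 1.64 ± 0.25 CPM (n = 6) in F2/metestrus and 3.22 ± 3.59 CPM (n = 6) in F1/proestrus. The wide spread of F1/proestrus came from sample 5, which held 1199 *Nmb* counts, or 10.5 CPM, 4.30 times the next highest of all samples. The lowest, median and highest samples were at 1.33, 1.79 and 10.5 CPM in F1/proestrus, at 1.23, 1.64 and 1.94 CPM in F2/metestrus and at 1.43, 1.94 and 2.32 CPM in males. The 3 groups overlapped. Without that sample, F1/proestrus was at 1.77 ± 0.44 CPM (n = 5).

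The fitted difference of *Nmb* turned on the same sample. Males against females gave a log2 difference of -0.34 (SE 0.38, edgeR adjusted p = 0.789) with all samples and 0.19 (SE 0.14, edgeR adjusted p = 0.664) without F1/proestrus sample 5. F2/metestrus against F1/proestrus gave -0.98 (SE 0.45, edgeR adjusted p = 0.99998) and, without it, -0.11 (SE 0.17). Within the library series, the sex difference of *Nmb* was 0.25 in the first and -0.71 in the second, which holds that sample. The second series was nominally higher than the first by 0.75 (SE 0.29, edgeR adjusted p = 0.0621).

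*Nppb*, the gene of B-type natriuretic peptide, was high in the same sample, with 142 counts (1.24 CPM) against 2 to 20 counts in the other 17, and it did not pass the filter on low counts. The other 17 samples were at 0.0206 to 0.180 CPM, and 3 counts correspond to 0.0240 to 0.0407 CPM. Sensory ganglion genes were high there too. *Scn10a*, a sodium channel of nociceptive afferents, was at 125 CPM in that sample and at most at 0.153 CPM elsewhere, and *Avil*, a marker of sensory neurons, was at 132 CPM against at most 0.903 CPM. The part of ganglion tissue in the *Nmb* and *Nppb* values was not tested. *Grp* in that sample was at 5.39 CPM, near the low end of the females, and its sex difference without the sample was 0.89 (SE 0.15, edgeR adjusted p = 0.00774).

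**Figure D2:**
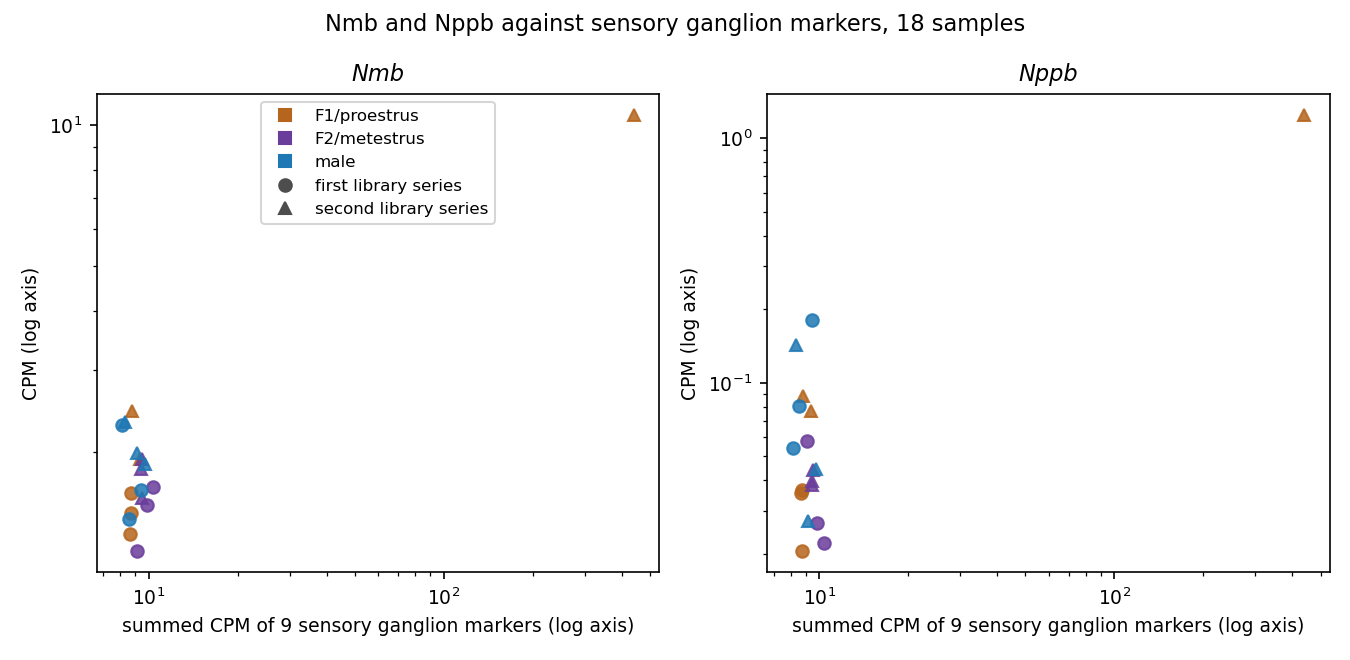
*Nmb* (left) and *Nppb* (right) in CPM against the summed CPM of 9 sensory ganglion markers, all on log axes, 1 point per sample with groups by colour and library series by shape. F1/proestrus sample 5 lies alone at 439.9 CPM of ganglion markers, 42.5 times the highest of the others, and has the highest *Nmb* and *Nppb*.

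*Grpr*, the receptor gene of GRP, did not pass the test between any of the groups. It was at 2.27 ± 0.18 CPM (SD, n = 6) in males, 2.32 ± 0.41 CPM (n = 6) in F1/proestrus and 2.20 ± 0.56 CPM (n = 6) in F2/metestrus. The male samples ran from 1.94 through a median of 2.30 to 2.43 CPM and lay inside the range of the females, 1.69 to 3.14 CPM. The log2 difference of males against females was 0.00 (SE 0.12, edgeR adjusted p = 0.996), with a 95% interval of the fold from 0.838 to 1.20. It was -0.14 (SE 0.18, edgeR adjusted p = 0.862) in the first library series and 0.15 (SE 0.13, edgeR adjusted p = 0.662) in the second. The residual correlation of *Grp* and *Grpr* over the 18 samples, after the mean of each group and series was subtracted from log2 CPM, was 0.13 (Spearman's rho), a description of points that share library and depth.

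*Nmbr*, the receptor gene of NMB, was at 5.27 ± 0.82 CPM (SD, n = 6) in males, 4.53 ± 0.95 CPM (n = 6) in F1/proestrus and 4.41 ± 0.25 CPM (n = 6) in F2/metestrus. Males ran from 4.50 through 5.07 to 6.50 CPM, F1/proestrus from 3.04 through 4.42 to 5.68 CPM, and F2/metestrus from 4.18 through 4.36 to 4.90 CPM. The groups overlapped, with 6 of 6 males above the female median of 4.36 CPM and 2 of 6 above all females. The log2 difference was 0.24 (SE 0.11, 95% interval 0.02 to 0.46, edgeR adjusted p = 0.481, unadjusted p = 0.0351). The value did not pass the correction, and an unadjusted p under 0.05 was reached by 9.72% of all genes tested. Within the series it was 0.11 (SE 0.12) and 0.36 (SE 0.16). The lowest *Nmbr* of all samples was in F1/proestrus sample 5, at 3.04 CPM.

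*Brs3*, the third receptor gene of the bombesin family, held 0 to 12 counts per sample (0 to 0.108 CPM) and did not pass the filter in any comparison. Its level was close to that of 3 counts, so no difference between groups could be read at this depth.

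The natriuretic peptide receptor genes did not pass the test between any of the groups. *Npr1*, whose product makes cyclic GMP, was at 2.81 ± 0.50 CPM (SD, n = 6) in males, 2.53 ± 0.15 CPM (n = 6) in F1/proestrus and 2.50 ± 0.54 CPM (n = 6) in F2/metestrus, with ranges of 2.23 to 3.70, 2.26 to 2.72 and 1.82 to 3.35 CPM and medians of 2.76, 2.56 and 2.54 CPM. The log2 difference of males against females was 0.16 (SE 0.11, edgeR adjusted p = 0.643, 95% interval -0.07 to 0.40), and it was 0.17 (SE 0.13) in the first series and 0.14 (SE 0.15) in the second. The 3 groups overlapped.

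*Npr3*, the gene of the clearance receptor, was at 3.03 ± 0.61 CPM (SD, n = 6) in males, 2.85 ± 0.71 CPM (n = 6) in F1/proestrus and 3.31 ± 0.71 CPM (n = 6) in F2/metestrus. The males ran from 2.70 through 2.81 to 4.26 CPM, F1/proestrus from 2.17 through 2.68 to 3.96 CPM, and F2/metestrus from 2.41 through 3.41 to 4.32 CPM. Its log2 difference between males and females was -0.02 (SE 0.15, edgeR adjusted p = 0.967, 95% interval -0.33 to 0.28), with -0.16 (SE 0.18) in the first series and 0.14 (SE 0.14) in the second.

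*Npr3* differed between the library series. It was lower in the second series by 0.38 on the log2 scale (SE 0.11, edgeR adjusted p = 0.0138), at 2.66 ± 0.34 CPM (n = 9) against 3.47 ± 0.68 CPM (n = 9), beside 12.7% of genes that fell. With *Grp*, this made 2 of 6 members past the threshold between the series, beside 26.9% of all genes tested, so nothing is read from that count. For *Npr1* the value was -0.26 (SE 0.10, edgeR adjusted p = 0.0517) and for *Grpr* -0.24 (SE 0.11, edgeR adjusted p = 0.103), and neither passed. Each series held the same number of samples of each group, so the series cannot shift one group against another by its own mean.

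**Figure D3:**
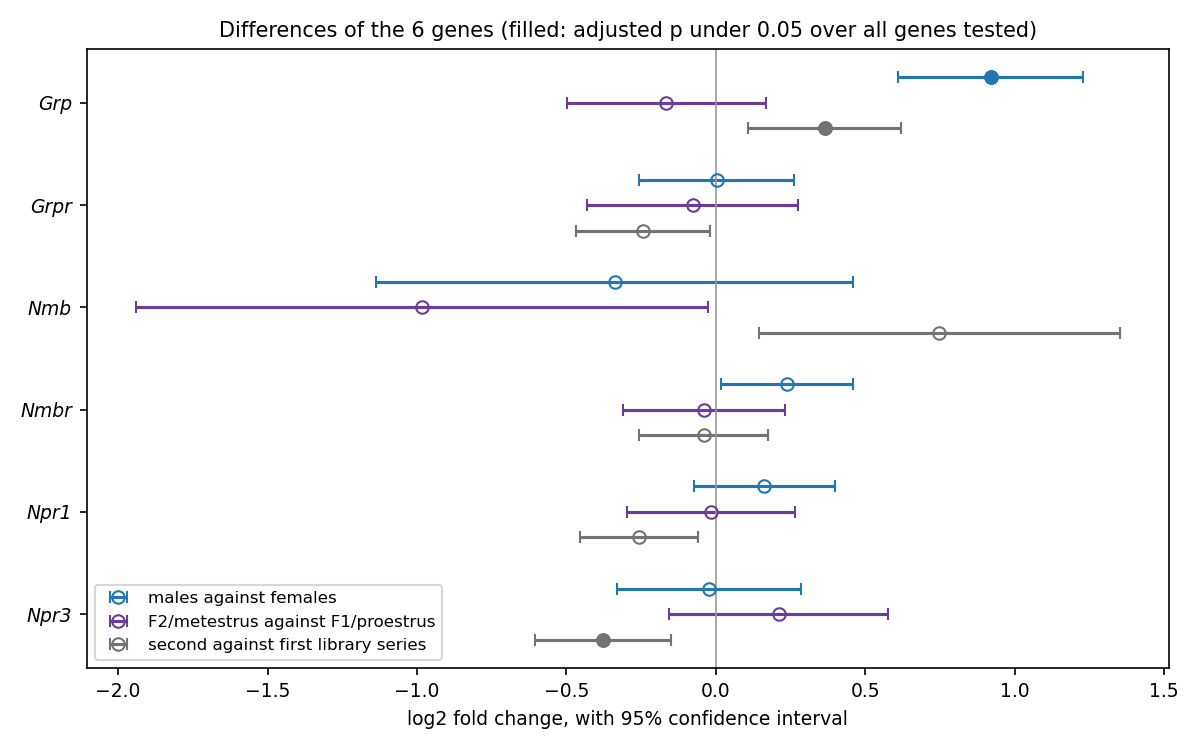
Log2 fold change of each of the 6 genes with its 95% confidence interval, for males against females (blue), F2/metestrus against F1/proestrus (purple) and the second against the first library series (grey), filled where the adjusted p over all genes tested was under 0.05. *Grp* lies at 0.92 between the sexes, while the interval of *Grpr* runs from -0.26 to 0.26.

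Between the female groups none of the 6 genes passed the test. The fit of F2/metestrus against F1/proestrus called 0 of 24042 genes (0%) in edgeR's quasi-likelihood test, 596 genes had an unadjusted p under 0.05, a share of 2.48%, and DESeq2 called 2 genes. The log2 difference of *Grp* was -0.17 (SE 0.16, 95% interval -0.50 to 0.17), that of *Grpr* -0.08 (SE 0.17), that of *Nmbr* -0.04 (SE 0.13), that of *Npr1* -0.02 (SE 0.13) and that of *Npr3* 0.21 (SE 0.17), each with an edgeR adjusted p of 0.99998. For *Grp* the interval of the fold ran from 0.708 to 1.12. Within the first and the second library series the difference of *Grp* was -0.09 (SE 0.12) and -0.23 (SE 0.24).

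The other natriuretic peptide genes of the dorsal horn put *Npr1* and *Npr3* in context. *Nppc*, the gene of C-type natriuretic peptide, was at 19.1 ± 3.86 CPM (n = 6) in males, 17.7 ± 4.19 CPM (n = 6) in F1/proestrus and 16.8 ± 2.24 CPM (n = 6) in F2/metestrus, with a sex difference of 0.15 (SE 0.12, edgeR adjusted p = 0.681). *Npr2*, the gene of its receptor, was at 58.3 ± 8.91, 62.8 ± 6.18 and 59.3 ± 4.42 CPM in the same order, with a sex difference of -0.07 (SE 0.08, edgeR adjusted p = 0.79). *Nppa*, the gene of atrial natriuretic peptide, was at most at 1.15 CPM in every sample, with a sex difference of 0.18 (SE 0.16, edgeR adjusted p = 0.712), and 532 of its 865 exon bases overlap Gm13054 on the opposite strand. *Nppc* was higher in the second library series by 0.31 (SE 0.09, edgeR adjusted p = 0.0168).

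Levels of different genes were compared per kilobase of exon. Over all 18 samples *Grp* had the highest level of the 6 genes, 5.89 ± 2.50 CPM per kilobase (SD, n = 18), followed by *Nmb* at 2.85 ± 2.63, *Nmbr* at 1.47 ± 0.25, *Grpr* at 0.898 ± 0.156, *Npr1* at 0.546 ± 0.091 and *Npr3* at 0.326 ± 0.071 CPM per kilobase. The ranges of neighbours in that order overlapped over the samples. Within a sample the order of neighbours held in 16 to 18 of 18 samples, with *Grp* above *Nmb* in 17. *Nppc* at 17.1 ± 3.33 and *Npr2* at 12.9 ± 1.43 CPM per kilobase had means above those of all 6. The ranges overlapped for *Npr2*, whose lowest sample was at 10.5, below the highest of *Grp* (12.2) and of *Nmb* (13.2). *Nppa*, *Nppb* and *Brs3* had means of 0.922, 0.161 and 0.0125 CPM per kilobase. The mean of *Nmb* includes the high value of F1/proestrus sample 5, and its median was 2.22 CPM per kilobase against 1.41 for *Nmbr*. With the longest transcript as the length, *Nmb* was above *Nmbr* by the mean (3.21 and 2.96 CPM per kilobase) and below it by the median (2.50 and 2.84), so the order of this pair depends on the length and on that sample.

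The genes around the members were described from 5 lists, beside a median log2 difference of 0.00 between the sexes over all genes tested. Of the bombesin-like peptides and receptors 4 of 5 were tested and 1 rose in males, *Grp*, with a median of 0.12. Of the natriuretic peptide system 10 of 12 genes were tested and 0 passed, 6 being nominally higher and 4 lower in males, with a median of 0.11. The gene with the smallest p was *Corin*, the protease that activates atrial natriuretic peptide, at 1.02 ± 0.41 CPM (n = 6) in males and 0.513 ± 0.140 CPM (n = 12) in females, a log2 difference of 0.98 (SE 0.23, edgeR adjusted p = 0.116). It passed the threshold in DESeq2 (adjusted p = 0.0171). *Furin*, another protease of the system, followed with 0.09 (SE 0.05, edgeR adjusted p = 0.607).

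Of 25 dorsal horn itch circuit partners all were tested and 1 rose in males, *Penk*, the precursor of the enkephalins, with 15 nominally higher, 10 lower and a median of 0.04. *Penk* was at 469 ± 64.6 CPM (SD, n = 6) in males and 302 ± 39.5 CPM (n = 12) in females, a log2 difference of 0.63 (SE 0.08, edgeR adjusted p = 0.000449). The lowest male was at 394 CPM and the highest female at 383 CPM, so the sexes did not overlap, as for 0.0724% of genes tested with males higher. In that list, which was chosen with earlier results known, 10 of 25 genes had an unadjusted p under 0.05, in both directions, beside 9.72% of all genes tested. The counts were 2 of 4 for the bombesin list and 1 of 10 for the natriuretic list. They were 1 of 15 for the Gq list and 9 of 16 for the itch afferent and sensory ganglion list. Nothing is read from these counts.

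Of the 15 genes of Gq signalling below both bombesin receptors 0 passed, with 8 nominally higher, 7 lower and a median of 0.01. The smallest p-values were those of *Itpr3*, a calcium release channel, at 0.36 (SE 0.17, edgeR adjusted p = 0.514), and of *Gna11*, a Gq family subunit, at 0.08 (SE 0.05, edgeR adjusted p = 0.576). Of 21 itch afferent and sensory ganglion genes 16 were tested and 0 passed, with 2 nominally higher and 14 lower in males and a median of -0.60. Its smallest p-values were those of *Scn10a* at -8.18 (SE 2.76, edgeR adjusted p = 0.326) and *Avil* at -4.68 (SE 1.65, edgeR adjusted p = 0.353), the genes that were high in F1/proestrus sample 5. The split and the median of this list include that sample, and its part in them was not tested. In the female comparison 0 genes of any of the 5 lists passed.

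**Figure D4:**
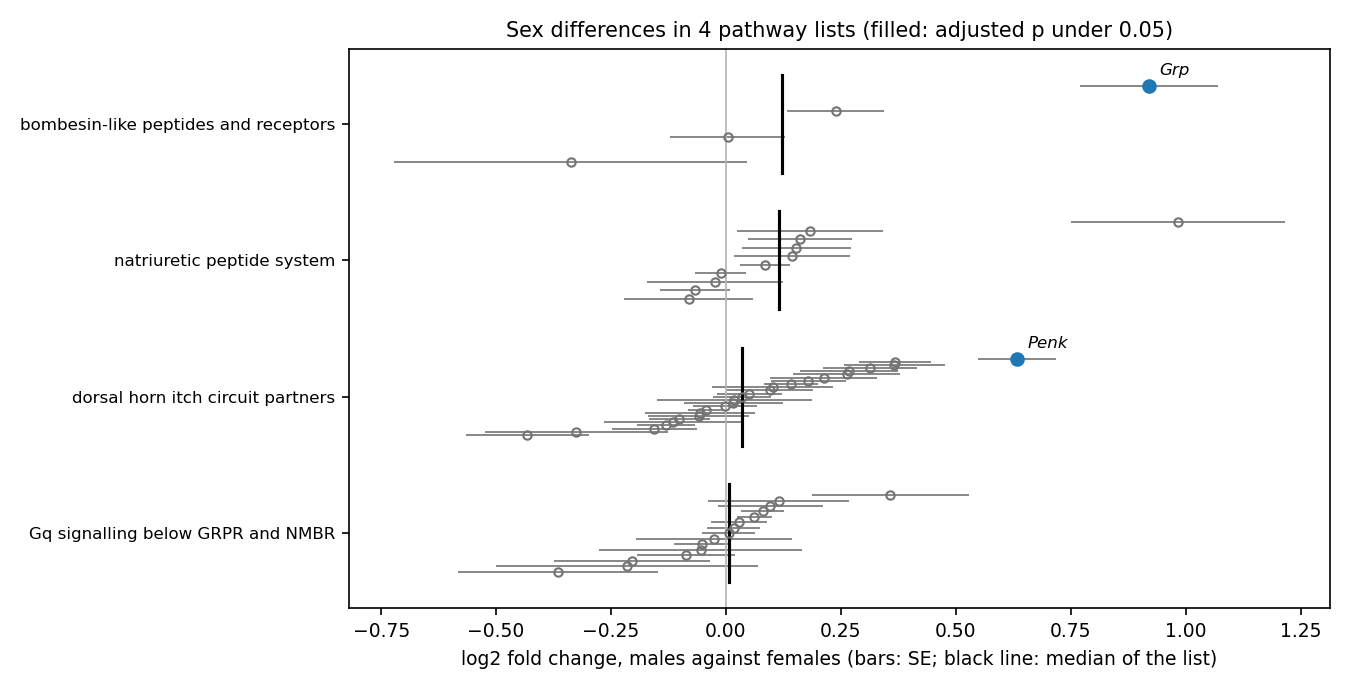
Log2 fold change of males against females (x axis, bars are SE) for every tested gene of 4 lists, 1 point per gene, with the median of each list as a black line and genes past the 5% FDR filled. *Grp* at 0.92 and *Penk* at 0.63 are the filled points, and the medians of these 4 lists lie between 0.01 and 0.12. The list of itch afferent and sensory ganglion genes, with a median of -0.60, is not drawn.

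The genes whose levels most resembled those of each member were found from log2 CPM over the 18 samples, after the mean of each group and library series was subtracted, among 17762 genes. All points share library, depth and dissection, so the values describe these samples. For *Grp* they were *Chst1*, a carbohydrate sulfotransferase gene (Spearman's rho 0.95), A830012C17Rik (0.93) and *Penk* (0.92). A830012C17Rik is a transcript on chromosome 4 at 4138321 to 4188703 that runs opposite to *Penk*, at 4133531 to 4138819, and 233 of their exon bases overlap, so their reads cannot be told apart there. Without the subtraction A830012C17Rik and *Penk* were the 1st and 2nd most alike, with rho of 0.96 and 0.95, and *Chst1* was at place 74. *Chst1* did not pass the test between the sexes (log2 difference 0.10, SE 0.06, edgeR adjusted p = 0.577). A830012C17Rik did, with 0.66 (SE 0.08, edgeR adjusted p = 6.86e-05).

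Sample by sample, *Grp* and *Penk* were high together in CPM from which no series mean was subtracted. *Penk*, like *Grp*, was also higher in the second library series, by 0.24 on the log2 scale (SE 0.06, edgeR adjusted p = 0.00894), beside 14.2% of genes that rose. Male sample 5 and F1/proestrus samples 5 and 6 belong to that series, and male sample 1 and F1/proestrus sample 1 to the first. The part of the series in the shared extremes was not tested. F1/proestrus sample 6 had the highest *Grp* of the females, 10.6 CPM, and the highest *Penk*, 383 CPM, and F1/proestrus samples 1 and 5 had the lowest *Grp*, 5.30 and 5.39 CPM, and the lowest *Penk*, 261 and 251 CPM. Among males, sample 5 had the highest of both, 18.04 and 562 CPM, and sample 1 the lowest, 8.60 and 394 CPM. *Penk* is shown because it was picked for its likeness to *Grp*, so these shared extremes are not evidence of a relation.

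**Figure D5:**
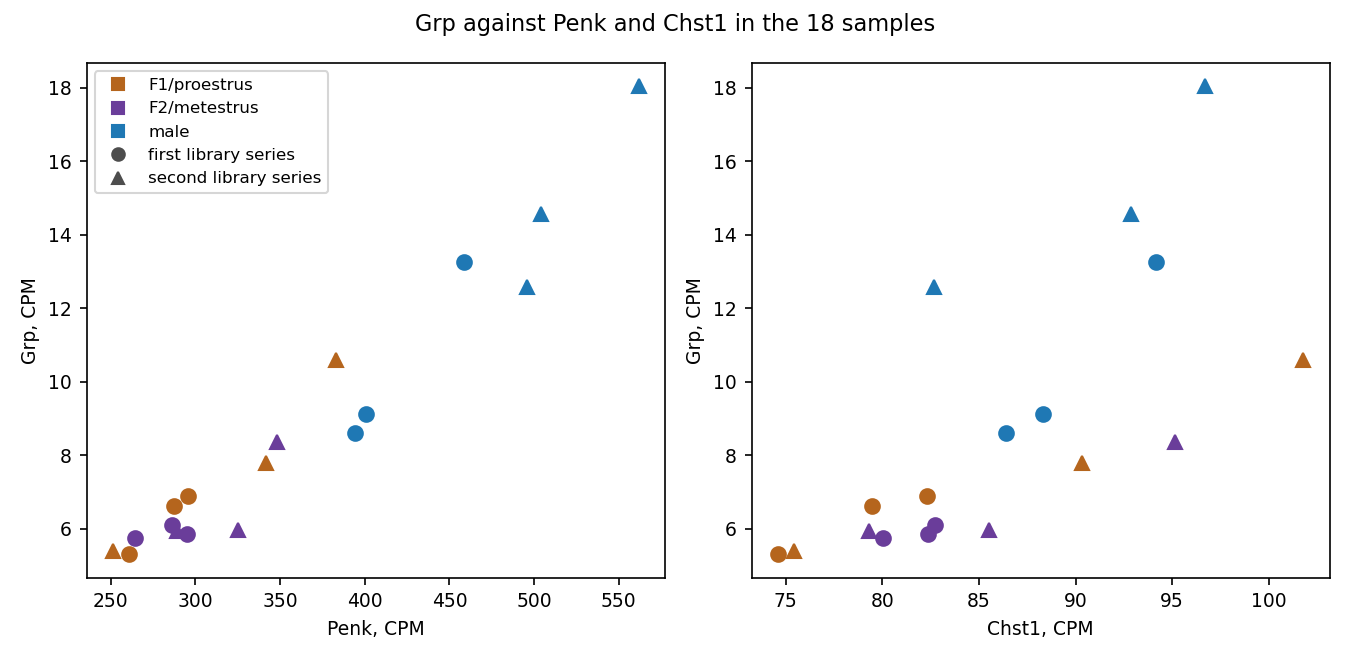
*Grp* in CPM (y axes) against *Penk* (left) and *Chst1* (right) in CPM in each of the 18 samples, with groups by colour and library series by shape. *Penk* and *Chst1* were picked for their likeness to *Grp*. *Grp* and *Penk* were high in the same males, up to 18.04 and 562 CPM, while *Chst1* ranged from 74.6 to 102 CPM with the sexes overlapping.

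For the receptors, the most alike genes were *Adnp*, *Oprm1* and *Kat6b* for *Grpr* (rho 0.87, 0.85 and 0.84), and *Mafa*, *Cited2* and *Utp18* for *Nmbr* (0.93, 0.87 and 0.85). For *Npr1* they were *Mgat2*, *Slc9b2* and *Myzap* (0.89, 0.86 and 0.85), and for *Npr3* *Slc16a9*, Gm28501 and *Myo1h* (0.94, 0.88 and 0.88). *Nmb* had *Tpbgl*, Gm16083 and *Harbi1* (0.84, 0.83 and 0.82). *Oprm1*, the gene of the mu-opioid receptor, was the 1 gene among these 15 that stood in an itch circuit list. Without the subtraction Gm28501 was the 1st most alike to *Npr3* (rho 0.88), and the others of these 15 were at places 20 to 8637. The last place was that of *Harbi1* for *Nmb*, with rho of 0.07. Each gene was picked as one of the highest of 17762, so a high rho is not evidence of a relation. *Adnp* and *Kat6b* were lower in the second library series (by 0.45 and 0.56 on the log2 scale, edgeR adjusted p = 1.01e-05 and 4.69e-06), beside 12.7% of genes that fell. The *Grpr* value had the same direction and did not pass. The mean of each group and series was subtracted first, so these falls do not enter the rho of 0.87 and 0.84. Among the 6 members themselves rho ran from -0.56, for *Nmbr* and *Npr3*, to 0.51, for *Grp* and *Nmbr*, and it was -0.52 for *Nmb* and *Nmbr*.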

How the data were processed

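RNA was sequenced from the ipsilateral DHSC of 18 samples (6 F1/proestrus, 6 F2/metestrus, 6 males). The authors mapped reads uniquely to mm10 with Subread at its default values and counted reads over gene exons with featureCounts. The submitters' processing notes give Subread 2.0.3 and DESeq2 1.3.0, whereas the study's methods give an older Subread version. The labels name a SMART-Seq kit and the methods a TruSeq kit. How strand and reads in exons shared by overlapping genes were handled is not given in the sources used here. The deposited values are raw counts per Ensembl gene. A deposited table of the authors' own fold changes and p-values was used for gene symbols only.

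Counts were analysed with edgeR 4.0.16 (R 4.3.3): filterByExpr (minimum count 10, minimum total count 15), TMM scaling, quasi-likelihood tests, Benjamini-Hochberg adjustment at 5% over all genes tested. CPM use TMM-scaled library sizes, and log2 CPM a prior count of 2. Males were compared with all 12 females and F2/metestrus with F1/proestrus, as in the study. Contrasts of males with each female group came from a fit of 3 groups, and the series term was fitted beside the group. Alternatives were DESeq2 1.42.0, other scaling and filters, the library series, a replicate block and leaving out each sample. Confidence intervals are at 95%. On simulated data for the sex comparison, with 24490 genes tested, 162 of 198 genes changed 2-fold were recovered with 10 false calls, and for the female comparison, with 23739 genes, 152 of 195 with 7. The simulated counts were drawn without a library series effect or an outlying sample, so recovery in the measured samples can differ.

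The members and lists were chosen with earlier results of these data known. Named genes were the members, their kin (*Brs3*, *Nppa*, *Nppb*, *Nppc*, *Npr2*), in each list the genes past the FDR in the sex comparison or the 2 with the smallest p, and the 3 genes most alike to each member among genes with a mean of at least 1 CPM. Further gene lists held markers of meningeal fibroblasts, endothelial cells, mural cells, microglia and red blood cells, of which 0 genes passed in the sex comparison. Of the gene IDs, 55480 of 55573 were in GENCODE vM21 (GRCm38), which gave positions, lengths and sequences. The methods call the samples biological replicates, and the labels only number them, so p-values set each difference against the spread between these samples. No 2 samples held the same values, the closest pair differing in 32637 genes.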

Additional observations from a re-analysis of the deposited data

Results flagged for a closer look

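In each group of 6 samples, the gap of the highest and of the lowest sample to its neighbour was compared with the group's range for the 6 members and 5 related genes. Of 33 such groups 7 held a sample farther out than Dixon's 95% limit, and chance alone would mark about 1 in 20. Of those, 3 were in F1/proestrus sample 5, the sample with high sensory ganglion markers: *Nmb* at 10.5 CPM, *Nppb* at 1.24 CPM and *Npr2* at 74.6 CPM. The others were *Grp* in F2/metestrus sample 4 at 8.36 CPM, *Nmbr* in F2/metestrus sample 3 at 4.90 CPM, *Npr3* in male sample 3 at 4.26 CPM and *Nppc* in F1/proestrus sample 6 at 25.6 CPM. The last is also the female sample with the highest *Grp* and *Penk*.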

How the results depend on the processing

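The sex difference of *Grp* was positive in all 30 alternatives, from 0.75 to 1.04 on the log2 scale. It passed the FDR in DESeq2 (0.91, adjusted p = 3.89e-06), with the library series as a covariate (0.90, edgeR adjusted p = 0.000747) and without any 1 sample (0.78 to 1.003, edgeR adjusted p from 0.000618 to 0.0276), and missed it in either series alone and against F1/proestrus alone. The count of genes called between the sexes, 49, became 166 in DESeq2, 134 with the series as a covariate, 31 with at least 10 counts in every sample, 16 and 13 in the first and second series alone, and 23 and 32 against F1/proestrus and F2/metestrus alone. It was 177 with the covariate and without F1/proestrus sample 5, a setting chosen after seeing the data. Without 1 sample it ran from 25 to 77, the latter without F1/proestrus sample 5, with 25 without male sample 5 and 30 without male sample 4. Of the pathway list genes 2 were called (*Grp*, *Penk*). This became 4 in DESeq2 (with *Corin* and *Pdyn*), 1 in the first series, 0 in the second, 1 against F1/proestrus alone and 6 with the covariate and without F1/proestrus sample 5, and 2 to 3 without 1 sample. *Pdyn*, the dynorphin precursor, named after its values were seen, had an edgeR adjusted p of 0.0537 and passed with the series as a covariate (0.0288), the replicate block (0.0409), robust dispersions (0.0481) and no filter (0.0469), each then with 3 list genes. The cause of these shifts was not tested.

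Correlations of the deviations of same-numbered samples ran from -0.105 to 0.228, over 0.1 in 9 of 18 pairs and best with their own number in 5 of 18, so the numbers were not taken to pair the samples. A fit with the replicate number as a block called 148 genes between the sexes and gave *Grp* 0.91 (edgeR adjusted p = 0.0023). Between the female groups DESeq2 called 2 genes, edgeR 0 under every alternative.

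Some members changed sign between settings without passing the FDR. *Grpr* between the sexes gave -0.00519 in DESeq2, -0.0051 with size factors, -0.00279 with no filter, -0.000544 with at least 10 counts, -0.14 in the first series, -0.0337 against F1/proestrus alone and -0.0296 to 0.0449 without 1 sample. *Nmb* between the sexes was at -0.34 in the main fit and at -0.74 against F1/proestrus alone. It gave 0.17 in DESeq2, 0.25 in the first series, 0.24 against F2/metestrus alone, 0.18 with the covariate and without F1/proestrus sample 5, and -0.41 to 0.19 without 1 sample. *Npr3* gave 0.14 in the second series, 0.0865 against F1/proestrus alone, 0.00107 with the covariate and without F1/proestrus sample 5, and -0.15 to 0.0304 without 1 sample. Between the female groups *Nmbr* gave 0.0401 in the second series and -0.13 to 0.0394 without 1 sample, and *Npr1* 0.16 in the first series and -0.12 to 0.0608 without 1 sample. Intervals rest on the spread between these samples, and *Brs3* and *Nppb* were too low to test.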
